A study of Drosophila melanogaster with 12 samples.

Results

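The genes described here are Myc and 37 genes for the making of ribosomes, 38 of the 12216 genes in the deposited table. They were chosen as a list of symbols by function, without use of the measured values in the rule but with earlier results of these data known. A member was kept where 3 or more of the 12 libraries held a normalised count of 10 or higher. All 38 passed, with a lowest single value of 127 (Rrp46), so the filter removed none and no level was near 0. By symbol 37 were found in the deposited file, and pths was found through its identifier (FBgn0032919). RpI1 and RpI135 carry the current symbols Polr1A and Polr1B. By role the list holds 1 transcription factor (Myc), 4 genes for RNA polymerase I and its transcription and 1 nucleolar protein gene. It also holds 7 small nucleolar ribonucleoprotein (snoRNP) genes, 7 genes for the small subunit, 11 for the large subunit and 6 RNA exosome genes. The remaining gene, pths, is an RNA helicase gene placed with neither subunit.

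Ribosomes are built in the nucleolus, where RNA polymerase I transcribes the long ribosomal RNA precursor. The snoRNPs modify that precursor, assembly factors fold and cut it into the small and large subunits, and the exosome trims and degrades the pieces. Myc is a basic helix-loop-helix transcription factor that drives growth in wing discs and activates many ribosome biogenesis genes in Drosophila, among them pit, mod and mbm.

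RNA was sequenced from wing imaginal discs, the epithelial sacs of the larva from which the adult wing and thorax arise, of Drosophila melanogaster of the wildtype genotype w1118. The animals were raised at 25°C and the discs were taken 24 h after the animals entered the third larval instar. They were then kept for 2.5 h in Dye medium with 0, 20, 200 or 2000 nM 20-hydroxyecdysone (20E), the active insect moulting hormone, and each dose had 3 libraries. All groups, the 0 nM controls included, were dissected and cultured, and the labels do not tell whether discs of several animals were pooled or replicates were separate cultures. P-values therefore cover the spread among these libraries, which may be technical.

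Libraries held 9034719 to 27006374 reads, and 1 read was worth 0.565 to 1.69 normalised counts. Relative counting error was therefore smallest for members with high counts. It was larger for those with low counts, such as Rrp46 with a lowest value of 127. Wing disc epithelium markers (nub, vg, ap, sd, Dll and wg) were all detected and summed to 22709 to 24907 normalised counts per library at 0 nM and 31088 to 33881 at 2000 nM. Of these 6 markers, 4 rose at each dose against 0 nM. The 4 trachea markers summed to 18110 to 20160 at 0 nM, 13355 to 14901 at 20 nM, 12046 to 13698 at 200 nM and 13935 to 14380 at 2000 nM. Most of this sum came from verm and serp (means of 14210 and 3468 at 0 nM), which fell at each dose. The marker trh (1384 at 0 nM) rose at 200 and 2000 nM, and btl (196 at 0 nM) was not called. The 5 markers of adult muscle precursors summed to 1849 to 2142 at 0 nM and 1645 to 2095 at 2000 nM, and the 4 of neurons and glia to 313 to 456 and 620 to 780. Among the muscle precursor markers htl fell at 200 and 2000 nM (-0.61 and -0.71 on the log2 scale), twi fell at 2000 nM (-0.38) and zfh1 rose at 200 and 2000 nM (0.44 and 0.51), each past an adjusted p of 0.05. The neuronal marker elav rose at 200 and 2000 nM (0.65 and 0.93), and the fat body marker Fbp1 at 2000 nM (2.67). Fbp1 had few counts, with means of 2.83 at 0 nM and 19.3 at 2000 nM. The other fat body markers Lsp1alpha, apolpp and Lsp2 went the other way at 2000 nM (-3.58, -0.68 and -0.53), none past an adjusted p of 0.05. Blood cell markers summed to at most 93.6 in any library, salivary gland markers to at most 13.0, and fat body markers to 26.6 to 467 at 0 nM and at most 83.6 at the other doses. No marker was at 0 in every library, and the part of these cell types in the results below was not tested. In bulk samples, fewer cells of a type and less RNA per cell cannot be told apart.

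Myc (FBgn0262656) had more RNA at every dose of hormone. Its normalised counts were 1809, 1905 and 1563 in the 0 nM libraries and 3338, 3058 and 2842 at 20 nM. They were 3237, 2495 and 2854 at 200 nM and 3106, 2361 and 3073 at 2000 nM. Every library with hormone stood above every library without it. The means were 1759 ± 176 at 0 nM, 3079 ± 249 at 20 nM, 2862 ± 371 at 200 nM and 2847 ± 421 at 2000 nM (SD, n = 3). Against 0 nM, Myc rose by 0.81 ± 0.12 on the log2 scale at 20 nM (SE, 1.75-fold, adjusted p = 0.00062), where a log2 fold change is the mean log2(normalised count + 1) of a dose minus that of the other. It rose by 0.70 ± 0.12 at 200 nM (1.62-fold, adjusted p = 0.000614) and by 0.69 ± 0.12 at 2000 nM (1.61-fold, adjusted p = 0.000541). The adjusted p came from limma's moderated test on all 8455 genes that passed the filter, with a threshold of 0.05. These 3 comparisons share the same 0 nM libraries. The 3 hormone doses overlapped one another, and the log2 differences were -0.11 ± 0.12 between 200 and 20 nM, -0.12 ± 0.12 between 2000 and 20 nM and -0.01 ± 0.12 between 2000 and 200 nM (adjusted p = 0.733, 0.559 and 0.981). The 3 calls against 0 nM were kept under all 20 alternatives tried. Of the exon bases of Myc, 40.9% are overlapped on the opposite strand by CG12535, whose mean was 2.32 normalised counts, and 20.3% on the same strand by lncRNA:CR44999, for which no level is given here. The strand setting of the counting is not given in the sources used here.

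**Figure D1:**
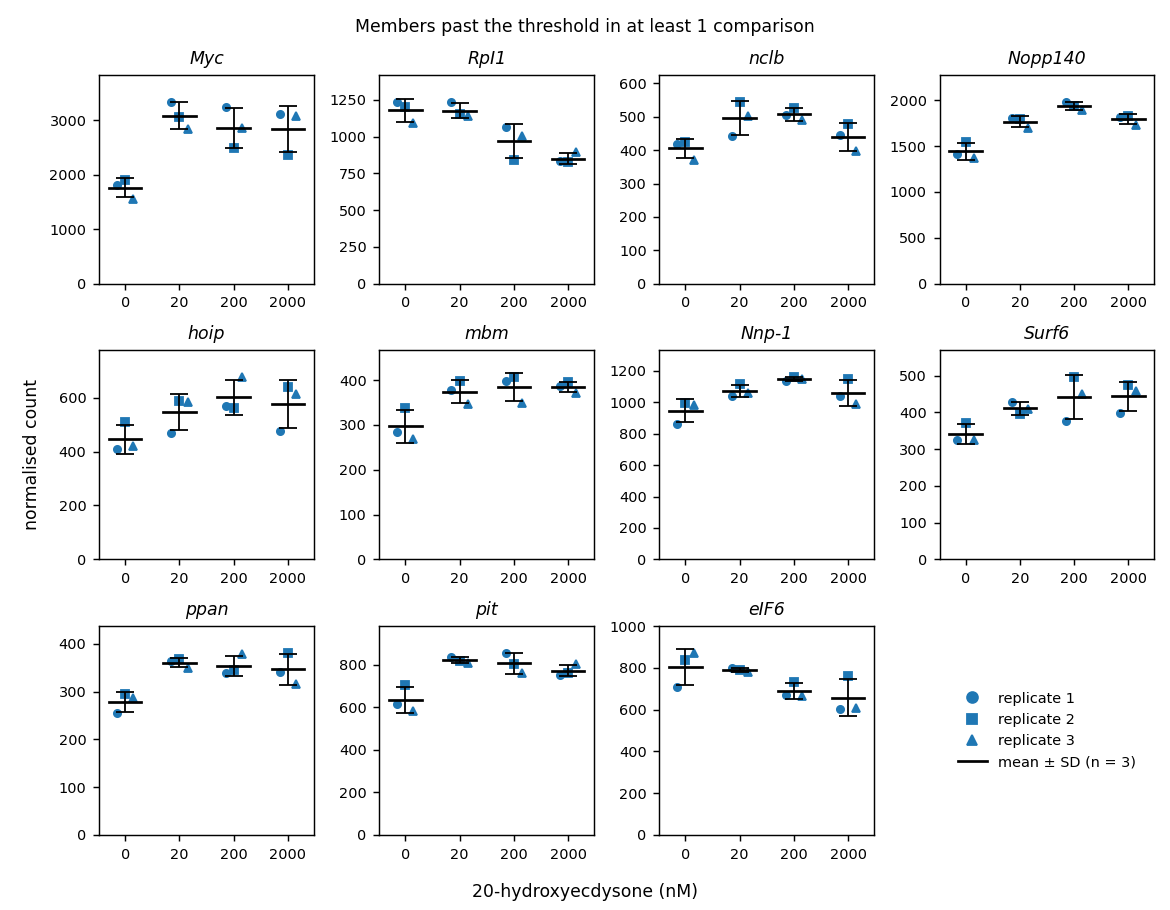
Normalised counts (vertical axes, from 0) of the 11 member genes past the threshold in at least 1 of the 6 dose comparisons, by 20E dose in nM (horizontal axes). Each point is a library, its shape gives the replicate number, and lines are means ± SD (n = 3). Myc rises at 20 nM and stays at that level, while RpI1 falls from 1176 at 20 nM to 850.1 at 2000 nM.

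Of the 38 members, 4 rose and 0 fell at 20 nM against 0 nM, where 2.97% of all tested genes rose and 1.54% fell. The 4 were Myc, Nopp140, ppan and pit, 10.5% of the members. At 200 nM 9 rose, 23.7% of the members against 9.92% of all tested genes, and 1 fell against a background of 10.4%. At 2000 nM 7 rose, 18.4% of the members against 15.4%, and 2 fell against a background of 15.5%, so at the highest dose the share that rose was close to the background and the share that fell was below it. At an unadjusted p under 0.05, 0 members were lower at 20 nM (5.32% of all tested genes) and 13 higher (6.78%). Those 13 became 7 without 0 nM replicate 1 or 3 and 8 without 20 nM replicate 2. A moderated F test of any difference from 0 nM called 7 members (Myc, RpI1, Nopp140, mbm, Surf6, ppan and pit), 18.4% of them against 23.7% of all tested genes, and 4 to 13 members passed it over the alternatives. These counts moved with single libraries. Without 0 nM replicate 3, 1 was higher at 20 nM (2.63% of members, 2.33% of all tested genes) and 5 at 200 nM (13.2% and 8.24%). In that fit 3 were higher (7.89% and 11.4%) and 1 lower (2.63% and 11.6%) at 2000 nM, and the F test called 4 (10.5% and 18.9%). Without 20 nM replicate 2 the count at 20 nM was 2 (5.26% and 2.25%). At 200 nM it was 4 higher without 0 nM replicate 1 and 5 without 200 nM replicate 3, and 0 fell without 0 nM replicate 2 or without 200 nM replicate 2. At 2000 nM the count was 4 higher without 2000 nM replicate 2, beside 1292 of the 8455 tested genes. The number that fell there was 1 when 0 nM replicate 2, or either replicate 1 or 3 of 2000 nM, was left out. Of the 8455 tested genes, 1165, 1156 and 1055 fell in those fits. In the authors' deposited table, 13 members had an adjusted p under 0.05 in the test over the 4 doses, as had 2435 of the 9374 genes with such a value, and the 7 members above were among them.

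Across all 38 members the shifts were small. The median member log2 fold change was 0.14 at 20 nM, 0.12 at 200 nM and 0.05 at 2000 nM, each against 0 nM, where the medians of all tested genes were -0.0015, 0.0031 and -0.004. The member median at 2000 nM rested on single libraries, and was 0.0013 without 2000 nM replicate 2, 0.021 without 0 nM replicate 1 and 0.034 without replicate 3 of either dose. Over all tested genes the SE had a median of 0.109. Of the 38 members, 31 lay above 0 at 20 nM, 31 at 200 nM and 22 at 2000 nM, beside 49.5%, 50.7% and 49.4% of all tested genes. The number at 200 nM was 26 without 0 nM replicate 1 or without 200 nM replicate 3. At 2000 nM the number was 19 without 2000 nM replicate 2 and 26 without 2000 nM replicate 1. All 3 hormone libraries stood above all 3 control libraries for 17 members at 20 nM (9.06% of all tested genes), 17 at 200 nM (17.1%) and 6 at 2000 nM (20.7%). They stood below for 0 members at 20 nM (8.18%), 1 at 200 nM (17.4%) and 2 at 2000 nM (21.0%). The members' spread was narrow, and of the 38 only Myc was above a log2 fold change of 0.5 at any dose in this fit. Summed over the list, the normalised counts were 61221, 66571 and 65622 at 0 nM, 68343, 69787 and 69686 at 20 nM, 67391, 65910 and 71360 at 200 nM, and 60503, 68087 and 63833 at 2000 nM. Every 20 nM library was above every 0 nM library in this sum, while the 2000 nM libraries spanned the 0 nM range. Non1, with means of 17239 to 18607 per dose, makes up a large part of the sum.

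**Figure D2:**
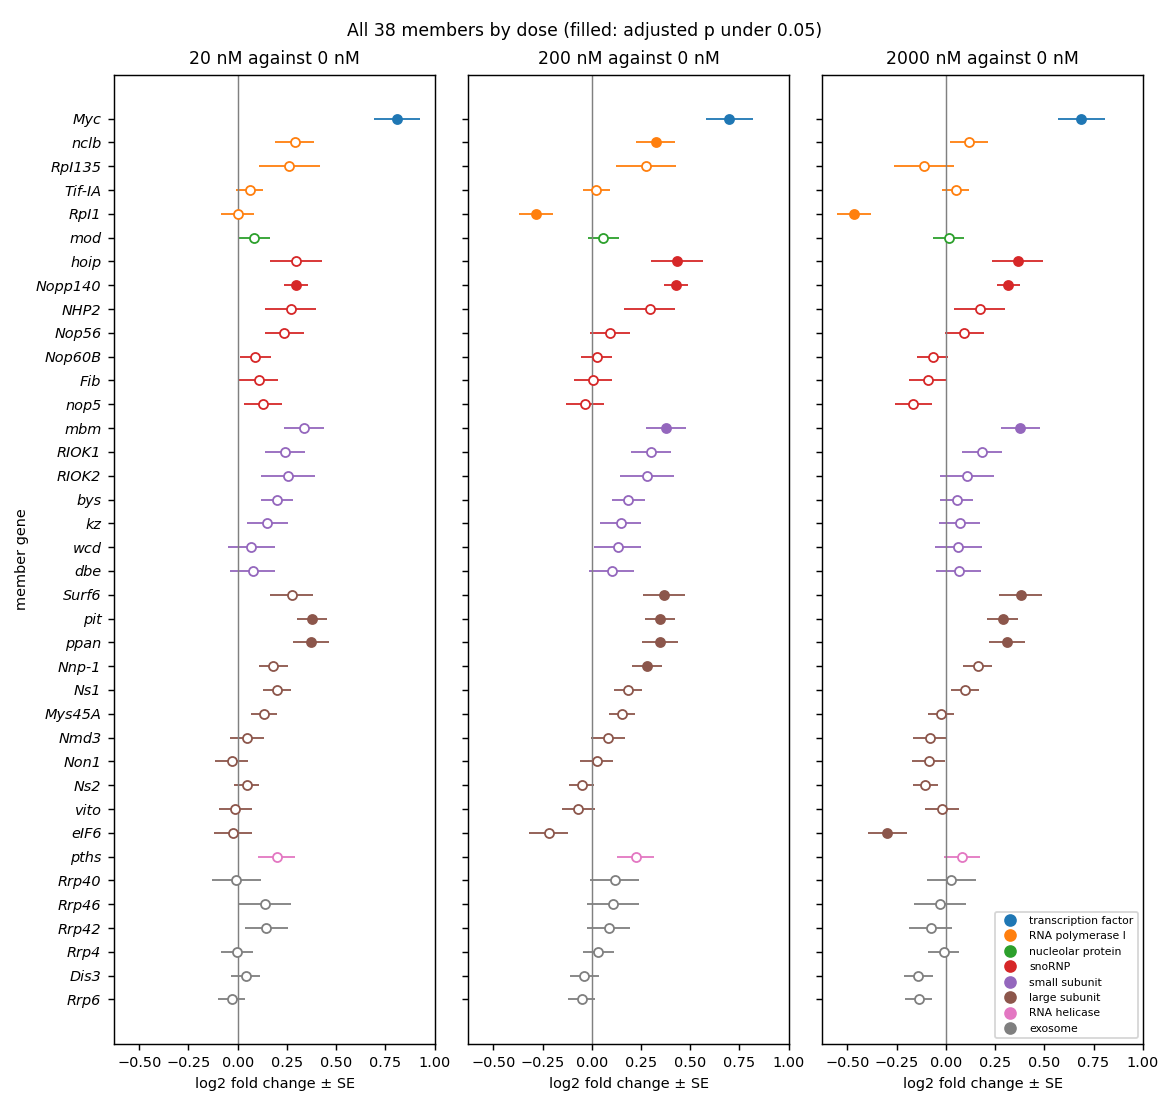
Log2 fold change ± SE (horizontal axes, 3 libraries per dose) of each of the 38 members at 20, 200 and 2000 nM against 0 nM, coloured by role. Filled points passed an adjusted p of 0.05. Most points lie slightly right of 0 at 20 and 200 nM, Myc stands apart at 0.69 to 0.81, and RpI1 and eIF6 are the filled points left of 0 at 2000 nM.

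**Figure D3:**
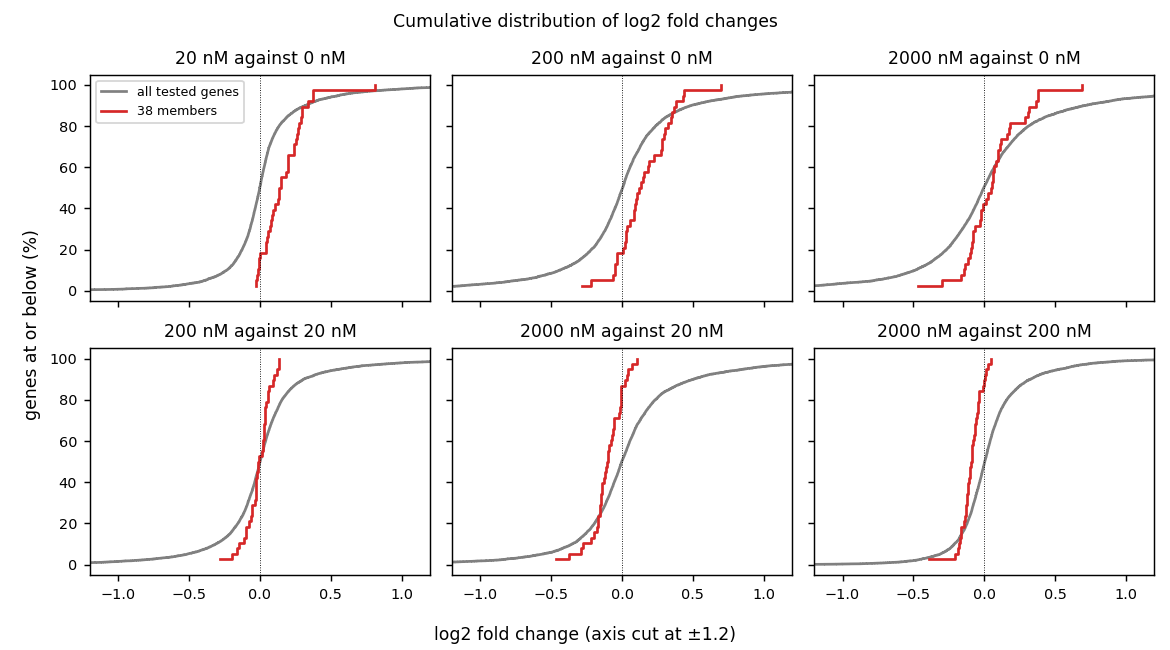
Cumulative share of genes (vertical axis, %) at or below each log2 fold change (horizontal axis, cut at both ends) for the 38 members and for all 8455 tested genes, in the 6 dose comparisons. The member curve lies right of that of all tested genes over most of its length at 20 and 200 nM against 0 nM, and left of it over its upper part when 2000 nM is set against 20 or 200 nM.

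Among the 4 genes for RNA polymerase I and its transcription, RpI1 fell at the upper doses and nclb rose at 200 nM. RpI1 (FBgn0019938) encodes the largest subunit of the polymerase. It was measured at 1236, 1203 and 1092 normalised counts at 0 nM and 1235, 1151 and 1141 at 20 nM. It stood at 1065, 842 and 1004 at 200 nM and at 832, 825 and 894 at 2000 nM. The 2000 nM libraries lay below all 0 nM and all 20 nM libraries, and the 0 and 20 nM libraries overlapped. RpI1 fell by 0.28 ± 0.09 on the log2 scale at 200 nM (adjusted p = 0.0295) and by 0.47 ± 0.09 at 2000 nM against 0 nM (1.38-fold, adjusted p = 0.000876). It also fell by 0.47 ± 0.09 from 20 to 2000 nM (adjusted p = 0.00171). The calls at 2000 nM were kept under all 20 alternatives. The call at 200 nM was lost (adjusted p = 0.104, 0.0874 and 0.136) without replicate 1 or 2 of 0 nM or replicate 2 of 200 nM, and in a fit of the 2 groups only (0.0688).

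The gene nclb (FBgn0263510) encodes a chromatin-bound nucleolar protein that promotes ribosomal DNA transcription. Its 0 nM libraries held 419, 425 and 371 normalised counts, followed by 442, 544 and 501 at 20 nM, 504, 527 and 489 at 200 nM and 444, 479 and 396 at 2000 nM. All 20 and 200 nM libraries were above all 0 nM libraries, and the 2000 nM libraries overlapped with them. It rose by 0.32 ± 0.10 on the log2 scale at 200 nM (adjusted p = 0.028), with 0.29 ± 0.10 at 20 nM (adjusted p = 0.156) and 0.12 ± 0.10 at 2000 nM (adjusted p = 0.403). The call at 200 nM was lost without 0 nM replicate 3 (adjusted p = 0.122) and without each 200 nM replicate (0.0613, 0.0956 and 0.0521). RpI135, for the second of the large subunits, had means of 323, 392, 395 and 301 normalised counts at 0, 20, 200 and 2000 nM, and passed no test in this fit. Its log2 difference between 2000 and 200 nM, -0.39, was the lowest of the 38 in that comparison (adjusted p = 0.375). Tif-IA, an initiation factor of the polymerase, had means between 982 and 1024 and passed no test. The nucleolar protein gene mod, a Myc target, had means between 6266 and 6636 and log2 fold changes of 0.08, 0.06 and 0.01, none past the threshold.

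Of the 7 snoRNP genes, Nopp140 rose at every dose and hoip at 200 and 2000 nM, and none fell against 0 nM. Nopp140 (FBgn0037137) encodes a nucleolar phosphoprotein that accompanies snoRNPs. It was measured at 1409.9, 1544 and 1369.7 normalised counts at 0 nM and 1806, 1796 and 1695 at 20 nM. It stood at 1982, 1940.2 and 1892 at 200 nM and 1822, 1829 and 1734 at 2000 nM. Every hormone library was above every control library, and the 200 nM libraries were above those of both other hormone doses. Nopp140 rose by 0.29 ± 0.06 (adjusted p = 0.00908), 0.43 ± 0.06 (adjusted p = 0.000124) and 0.32 ± 0.06 (adjusted p = 0.00119) on the log2 scale at 20, 200 and 2000 nM. Its largest fold among these was 1.35. The call at 20 nM was lost without 0 nM replicate 3 (adjusted p = 0.0585) or 20 nM replicate 2 (0.0563), and the calls at 200 and 2000 nM were kept under all 20 alternatives. Between 200 and 20 nM the log2 difference was 0.13 ± 0.06 (adjusted p = 0.251).

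The gene hoip (FBgn0286786) encodes a core protein shared by box C/D snoRNPs and a spliceosomal particle. Its 0 nM libraries held 408, 508 and 421 normalised counts, followed by 471, 587 and 586 at 20 nM, 569, 561 and 675 at 200 nM and 475, 640.2 and 614 at 2000 nM. Only the 200 nM libraries of hoip were all above the 0 nM libraries. It rose by 0.43 ± 0.13 on the log2 scale at 200 nM (adjusted p = 0.0298) and by 0.36 ± 0.13 at 2000 nM (adjusted p = 0.0489). The first call was lost (adjusted p = 0.106, 0.0979 and 0.134) when replicate 1 or 3 of 0 nM or replicate 3 of 200 nM was left out. The call at 2000 nM was kept in 7 of 20 alternatives, with an adjusted p of 0.0114 to 0.156.

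The other box C/D core genes and the box H/ACA genes passed no test in this fit. Fib, the methyltransferase fibrillarin, had means of 6260.0, 6748, 6299 and 5907 normalised counts at 0, 20, 200 and 2000 nM. For nop5 the means were 3824, 4182, 3741 and 3418, and for Nop60B, the pseudouridine synthase, 5583, 5940.3, 5681 and 5337. All 3 genes had their highest mean at 20 nM and their lowest at 2000 nM. The difference between 2000 and 20 nM was -0.29 for nop5 (adjusted p = 0.0511), -0.20 for Fib (adjusted p = 0.202) and -0.16 for Nop60B (adjusted p = 0.22). For nop5 this difference was called in 8 of 20 alternatives (adjusted p between 0.0093 and 0.193), 5 of them with 1 library left out. In the authors' deposited table nop5 had an adjusted p of 0.00715 in the test over the 4 doses. Nop56 and NHP2 had log2 fold changes of 0.24 and 0.27 at 20 nM (adjusted p = 0.334 and 0.444). All 7 snoRNP genes lay above 0 at 20 nM, with a median of 0.24 on the log2 scale, 6 at 200 nM with a median of 0.09 and 4 at 2000 nM with a median of 0.09.

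The 7 small-subunit genes all lay above 0 at each dose against 0 nM, and mbm passed the test. The median log2 fold changes were 0.20 at 20 nM, 0.19 at 200 nM and 0.07 at 2000 nM. The gene mbm (FBgn0086912), a nucleolar protein gene known for small-subunit assembly in neuroblasts, was measured at 284, 339 and 268 normalised counts at 0 nM and 378, 398 and 347 at 20 nM. It stood at 399, 406 and 349.9 at 200 nM and 387, 395 and 372 at 2000 nM. Every hormone library was above every control library. It rose by 0.38 ± 0.10 on the log2 scale both at 200 nM (adjusted p = 0.0149) and at 2000 nM (adjusted p = 0.0108), with 0.34 ± 0.10 at 20 nM (adjusted p = 0.088). Leaving out replicate 1 or 3 of 0 nM, or 1 or 2 of 200 nM, ended the call at 200 nM (adjusted p = 0.0527, 0.0743, 0.0517 and 0.0628), and that at 2000 nM was lost without 0 nM replicate 3 (0.0564). RIOK1, an atypical kinase of late subunit maturation, had a log2 fold change of 0.30 at 200 nM (adjusted p = 0.0525), called in 2 of 20 alternatives. Its relative RIOK2, of whose exon bases 48.5% are overlapped by an antisense RNA gene, had 0.28 (adjusted p = 0.181). The assembly factor genes bys, kz, wcd and dbe had 0.19, 0.15, 0.13 and 0.10 at that dose (adjusted p = 0.143, 0.381, 0.522 and 0.62).

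Of the 11 large-subunit genes, pit and ppan rose at every dose, Surf6 at 200 and 2000 nM and Nnp-1 at 200 nM, and eIF6 fell at 2000 nM. The DEAD-box RNA helicase gene pit (FBgn0266581), a Myc target, was measured at 618, 703 and 584 normalised counts at 0 nM and 838, 818 and 811 at 20 nM. It stood at 856, 806 and 759.7 at 200 nM and 754, 763 and 802 at 2000 nM. Every hormone library was above every control library. It rose by 0.38 ± 0.08 (adjusted p = 0.00831), 0.35 ± 0.08 (adjusted p = 0.00442) and 0.29 ± 0.08 (adjusted p = 0.0109) on the log2 scale at 20, 200 and 2000 nM. The call at 200 nM was kept under all 20 alternatives, and those at 20 and 2000 nM were lost without 0 nM replicate 3 (adjusted p = 0.0521 and 0.0595).

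The assembly factor gene ppan (FBgn0010770) was measured at 255, 296 and 286 normalised counts at 0 nM and 364, 368 and 350.4 at 20 nM. It stood at 339, 346 and 378 at 200 nM and 342, 381 and 317 at 2000 nM. Every hormone library was again above every control library. It rose by 0.37 ± 0.09 (adjusted p = 0.0332), 0.35 ± 0.09 (adjusted p = 0.0153) and 0.31 ± 0.09 (adjusted p = 0.0208) on the log2 scale at 20, 200 and 2000 nM. Leaving out replicate 1 or 3 of 0 nM ended the call at 20 nM (adjusted p = 0.143 and 0.0771), as did leaving out each 20 nM replicate (0.0941, 0.138 and 0.0783) and a fit of the 2 groups only (0.0562). That at 200 nM was lost without 0 nM replicate 1 (0.0684) or 200 nM replicate 3 (0.0732), and that at 2000 nM without 0 nM replicate 1 (0.0825) or 2000 nM replicate 2 (0.0781) and in a fit of the 2 groups only (0.0657).

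Surf6 (FBgn0038746), a nucleolar protein gene, was measured at 326, 372 and 324 normalised counts at 0 nM, 428, 395 and 409.9 at 20 nM, 377, 495 and 450.3 at 200 nM and 398, 474 and 459 at 2000 nM. Its groups with hormone did not overlap with the controls, and the lowest 200 nM library was close to the highest control. It rose by 0.37 ± 0.11 at 200 nM (adjusted p = 0.025) and 0.38 ± 0.11 at 2000 nM (adjusted p = 0.0153), with 0.27 ± 0.11 at 20 nM (adjusted p = 0.266). Leaving out replicate 1 or 3 of 0 nM, or 2 or 3 of 200 nM, ended the call at 200 nM (adjusted p = 0.0806, 0.0905, 0.119 and 0.0826), as did a fit of the 2 groups only (0.054). That at 2000 nM was lost without 0 nM replicate 3 (0.0599) or 2000 nM replicate 2 (0.0537) or 3 (0.0536).

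Nnp-1 (FBgn0022069), of the RRP1 family of nucleolar proteins, was measured at 860.1, 994 and 983 normalised counts at 0 nM, 1039, 1114 and 1059 at 20 nM, 1134, 1158 and 1148 at 200 nM and 1039, 1149 and 986 at 2000 nM. The 200 nM libraries were the closest together of the 4 groups and stood above all 0 and 20 nM libraries. It rose by 0.28 ± 0.07 at 200 nM (adjusted p = 0.014), a call lost without 0 nM replicate 1 (0.0668). At 20 nM the log2 fold change was 0.18 ± 0.07 (adjusted p = 0.299), and at 2000 nM it was 0.16 ± 0.07 (adjusted p = 0.115).

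The gene eIF6 (FBgn0034915) encodes a factor that keeps immature large subunits from joining small ones. Its libraries held 708, 836 and 871 normalised counts at 0 nM, 801, 788 and 779 at 20 nM, 672, 734 and 663 at 200 nM and 602, 759 and 609.8 at 2000 nM. The 2000 nM libraries overlapped with the controls through 0 nM replicate 1 and 2000 nM replicate 2. It fell by 0.30 ± 0.10 on the log2 scale at 2000 nM (adjusted p = 0.0343). That call ended (adjusted p = 0.0987, 0.14, 0.124 and 0.127) when replicate 2 or 3 of 0 nM, or 1 or 3 of 2000 nM, was left out, and in a fit of the 2 groups only (0.0903). The other large-subunit genes (Ns1, Ns2, vito, Non1, Mys45A and Nmd3) passed no test, and their log2 fold changes against 0 nM lay between -0.10 (Ns2 at 2000 nM) and 0.20 (Ns1 at 20 nM).

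The helicase gene pths had log2 fold changes of 0.20, 0.22 and 0.08 at 20, 200 and 2000 nM (adjusted p = 0.428, 0.119 and 0.554). The 6 exosome genes passed no test in any of the 6 comparisons. Their log2 fold changes against 0 nM lay between -0.14 and 0.15, and their medians were 0.02, 0.06 and -0.05 at 20, 200 and 2000 nM. The lowest were those of Rrp6 and Dis3, the exoribonucleases, at 2000 nM (-0.14 each, adjusted p = 0.141 and 0.173). Rrp40, for a cap subunit, has 35.1% of its exon bases overlapped on the opposite strand by Eno, whose mean was 4825 normalised counts. Of the 38 members, 17 have exons that overlap another gene's, and apart from Myc, RIOK2 and Rrp40 each such overlap covers under 6% of the member's exon bases.

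Levels per kilobase of exon differed widely between members. At 0 nM, Non1 stood at 8038 normalised counts per kb, Fib at 4750, mod at 2740, nop5 at 2109 and Nop60B at 1636. Myc stood at 191.8, RpI135 at 90.6 and kz at 83.4. The members with the highest level per kb, Non1, Fib and mod, were not among those that passed the test.

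For 33 of the 38 members the highest dose mean was at 20 or 200 nM. The highest mean was at 0 nM for 4 members, at 20 nM for 16, at 200 nM for 17 and at 2000 nM for 1 (Surf6). Over all tested genes these shares were 34.5%, 13.1%, 18.0% and 34.5%. Thus 86.8% of members and 31.0% of tested genes peaked at a middle dose. The lowest mean was at 0 nM for 21 members, at 20 nM for 1, at 200 nM for 1 and at 2000 nM for 15, beside 34.2%, 13.5%, 18.9% and 33.4% of all tested genes. The count of 33 was 34 with TMM scaling and 29 to 36 when each library was left out in turn. These are descriptions of group means, and for single members the differences between hormone doses were mostly within the spread between libraries, as the comparisons of one hormone dose with another show.

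**Figure D4:**
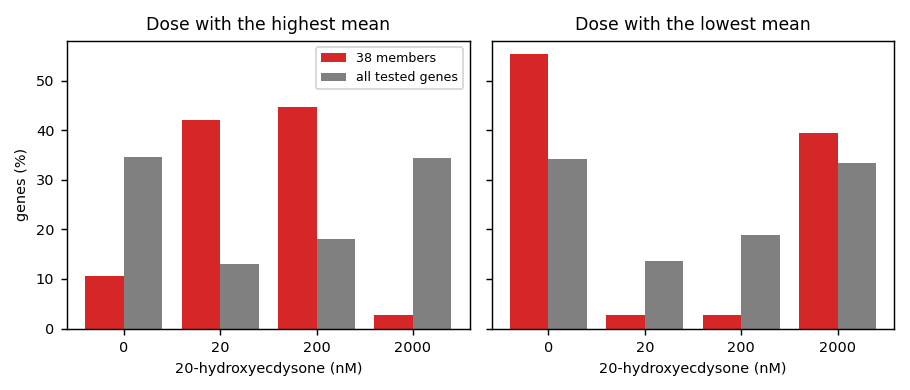
Share of genes (%, from 0) whose highest mean (left) or lowest mean (right) fell at each 20E dose in nM, for the 38 members and for all tested genes. Members are most often highest at 20 or 200 nM (16 and 17 genes) and most often lowest at 0 or 2000 nM (21 and 15 genes), whereas tested genes as a whole are most often highest at 0 or 2000 nM.

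Between the hormone doses few members differed. From 20 to 200 nM, 0 members rose and 0 fell, beside 4.23% and 3.76% of all tested genes, and at an unadjusted p under 0.05 there was 1 in each direction (8.98% and 9.49%). RpI1 was the lowest of the 38, at -0.28 ± 0.09 on the log2 scale (adjusted p = 0.0622). From 20 to 2000 nM, 0 rose (8.3% of all tested genes) and 1 fell, RpI1 (8.04%), with 0 higher and 7 lower at an unadjusted p under 0.05 (14.3% of all tested genes in each direction). Those 7 became 3 without 2000 nM replicate 3 and 4 without 20 nM replicate 2. With single libraries left out, the number that fell was 1 or 2. It was 2 when replicate 1 of 0 or 20 nM, or replicate 2 or 3 of 200 or 2000 nM, was left out. In those fits 489 to 685 of the 8455 tested genes fell. From 200 to 2000 nM, 0 rose and 0 fell, beside 0.166% and 0.0355%, with 0 and 3 at an unadjusted p under 0.05 (5.67% and 5.19%). Those 3 became 1 when replicate 1 of 200 nM, or replicate 3 of 2000 nM, was left out, and 5 without 2000 nM replicate 2. The member medians for these steps were -0.01, -0.11 and -0.09, and 18, 5 and 5 of the 38 lay above 0, beside 50.3%, 49.6% and 51.0% of all tested genes. From 20 to 2000 nM the number above 0 became 9 when replicate 2 of 20 nM, or replicate 1 of 2000 nM, was left out and 10 without 2000 nM replicate 3, and from 200 to 2000 nM it was 9 without 2000 nM replicate 1 and 2 without 2000 nM replicate 2. All 2000 nM libraries stood below all 20 nM libraries for 11 members (16.6% of all tested genes is the background) and above for 0 (16.2%). All 2000 nM libraries stood below all 200 nM libraries for 4 members (7.21%) and above for 0 (7.39%).

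Genes for partners and regulators of Myc were described from a separate list of 13, all tested. Against 0 nM, 2 rose and 0 fell at 20 nM, 3 and 0 at 200 nM, and 3 and 1 at 2000 nM. Of all tested genes 2.97% rose and 1.54% fell at 20 nM, 9.92% and 10.4% at 200 nM, and 15.4% and 15.5% at 2000 nM. The list medians were 0.05, 0.02 and -0.03 on the log2 scale, so most of the list moved little. The gene brat (FBgn0010300) encodes a translational repressor known to restrain growth and Myc in Drosophila neural progenitors. It was measured at 6203, 5818 and 5338 normalised counts at 0 nM and 13962, 12942 and 12355 at 20 nM. It stood at 23907, 17028 and 21497 at 200 nM and 28011, 21142 and 26375 at 2000 nM. It rose by 1.18 ± 0.13 (adjusted p = 3.02e-05), 1.83 ± 0.13 (adjusted p = 7.41e-08) and 2.11 ± 0.13 (adjusted p = 1.21e-08) on the log2 scale against 0 nM. It also rose from 20 to 200 nM, by 0.66 ± 0.13 (adjusted p = 0.00381), a step at which Myc had -0.11 ± 0.12.

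Mnt (FBgn0023215) encodes the repressor that competes with Myc for the partner Max. It was measured at 1358, 1199 and 1264 normalised counts at 0 nM and 1779, 1629 and 1599 at 20 nM. It stood at 2550.5, 2282 and 2312 at 200 nM and 3086, 2286 and 2408 at 2000 nM. Its groups did not overlap between 0, 20 and 200 nM. It rose by 0.39 ± 0.10 (adjusted p = 0.0368), 0.90 ± 0.10 (adjusted p = 1.02e-05) and 1.01 ± 0.10 (adjusted p = 2.37e-06) against 0 nM, and by 0.51 ± 0.10 from 20 to 200 nM (adjusted p = 0.00406). The call at 20 nM ended when replicate 2 or 3 of 0 nM was left out (adjusted p = 0.139 and 0.113), and likewise for each 20 nM replicate (0.144, 0.0982 and 0.0694) and for 200 nM replicate 3 (0.0572). Without them, the number of list genes that rose at 20 nM was 1.

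The F-box gene ago, whose product marks Myc protein for degradation, had means of 4024 ± 211, 4211 ± 90.8, 4960.0 ± 374 and 4943 ± 363 normalised counts at 0, 20, 200 and 2000 nM (SD, n = 3). It rose by 0.30 ± 0.07 on the log2 scale at 200 nM (adjusted p = 0.00792) and at 2000 nM (adjusted p = 0.00633). Tip60, an acetyltransferase gene, fell by 0.23 ± 0.08 at 2000 nM (adjusted p = 0.0413), a call kept in 10 of 20 alternatives (adjusted p between 0.0251 and 0.183), and 15.6% of its exon bases are overlapped on the opposite strand by tyf. Max, the shared partner, was added here after its values were seen, and had means of 751, 779, 759 and 796 normalised counts and no call in any comparison (adjusted p = 0.924, 0.921 and 0.511 against 0 nM).

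**Figure D5:**
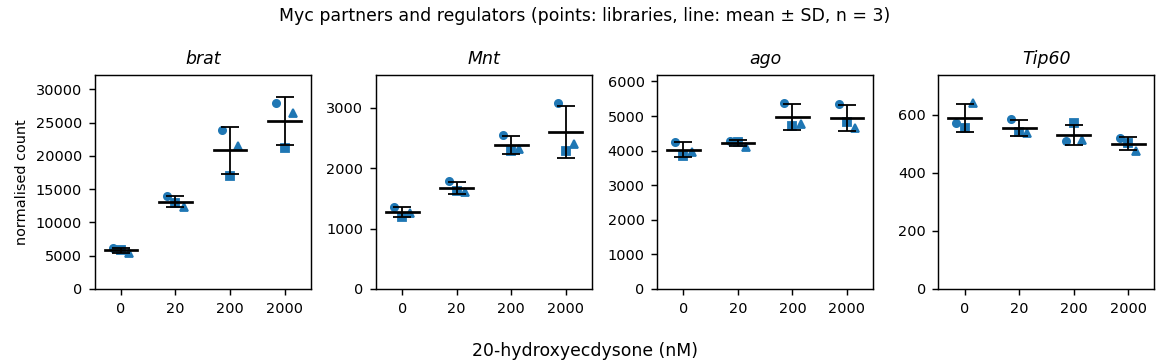
Normalised counts (vertical axes, from 0) of brat, Mnt, ago and Tip60 by 20E dose in nM (horizontal axes). Points are libraries and lines are means ± SD (n = 3). The mean of brat goes from 5786 at 0 nM to 25176 at 2000 nM and that of Mnt from 1273 to 2593, each higher at 200 than at 20 nM.

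A second list held 33 further ribosome biogenesis genes, all tested, none of them members. Against 0 nM, 0 rose and 0 fell at 20 nM, 3 rose and 0 fell at 200 nM, and 2 rose and 1 fell at 2000 nM, and from 20 to 2000 nM 2 fell. The 3 that rose at 200 nM, 9.09% of the list, were close to the 9.92% of all tested genes, and at 2000 nM the list's shares of 6.06% and 3.03% were below the 15.4% and 15.5% of all tested genes. From 20 to 2000 nM 6.06% of the list and 8.04% of all tested genes fell. Of all tested genes, 2.97% rose and 1.54% fell at 20 nM, and 10.4% fell at 200 nM. The medians were 0.14, 0.05 and -0.01 on the log2 scale against 0 nM, with 26, 22 and 16 of the 33 above 0. For the members the matching medians were 0.14, 0.12 and 0.05. The gene FBgn0022288 had means of 557, 631, 676 and 635 normalised counts and rose by 0.28 ± 0.07 at 200 nM (adjusted p = 0.0106). Mat89Ba had means of 249, 295, 361 and 323 and rose by 0.53 ± 0.15 at 200 nM (adjusted p = 0.0182). Mtr4, the helicase that feeds RNA to the nuclear exosome, had means of 983, 955, 918 and 801 and fell by 0.29 ± 0.09 at 2000 nM (adjusted p = 0.0217). The rRNA acetyltransferase gene l(1)G0020 had means of 516, 574, 527 and 466 and fell by 0.30 ± 0.08 from 20 to 2000 nM (adjusted p = 0.0202). Over all alternatives, 1 to 5 of the 33 rose at 200 nM, 0 to 4 rose and 0 to 3 fell at 2000 nM, and 0 to 5 fell from 20 to 2000 nM. The remaining calls in this list, named after their values were seen, were l(3)72Dn at 200 nM (0.39, adjusted p = 0.0396), Polr1D (0.63, adjusted p = 0.0237) and Nop10 (0.51, adjusted p = 0.0466) at 2000 nM, and Nle from 20 to 2000 nM (-0.38, adjusted p = 0.0302). On the opposite strand, CG12935 overlaps 31.6% of the exon bases of Nop10. DCTN6-p27 overlaps 9.92% of those of Polr1D there, and brat 0.79%. The call of FBgn0022288 was kept under all 20 alternatives, that of Nop10 in 6, that of l(3)72Dn in 11 and that of Nle in 15. Mat89Ba lost its call without replicate 2 or 3 of 0 nM or replicate 1 of 200 nM (adjusted p = 0.0532, 0.0609 and 0.0703), and Polr1D without 0 nM replicate 3 (0.106) or 2000 nM replicate 2 (0.0858) or 3 (0.0559). Mtr4 lost it when replicate 3 of 0 or 2000 nM was left out (adjusted p = 0.0936 and 0.0783). For l(1)G0020 it ended without 20 nM replicate 2 (adjusted p = 0.083) or 2000 nM replicate 3 (0.0732), and for Nle without replicate 2 or 3 of 20 nM (0.0964 and 0.116) or 1 or 3 of 2000 nM (0.119 and 0.0908) and with the 2 groups only (0.0533).

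RNA polymerase III makes the 5S ribosomal RNA and transfer RNAs. Of 13 genes for its subunits and factors, all tested, 0 rose against 0 nM at 20, 200 or 2000 nM, beside 2.97%, 9.92% and 15.4% of all tested genes. At 20 and 200 nM 0 fell (1.54% and 10.4% of all tested genes), and 2 fell at 2000 nM. These 2 were 15.4% of the list, a share close to the 15.5% of all tested genes that fell at that dose. Over all alternatives, 0 to 1 of the 13 rose and 2 to 3 fell at 2000 nM. The polymerase subunit gene Polr1D, which rose at that dose, was counted in the list above and not here. Polr3A (RpIIIC160 in the table), for its largest subunit, was measured at 795, 690.4 and 683 normalised counts at 0 nM and 633, 526 and 547 at 2000 nM, with no overlap. Polr3B (RpIII128 in the table), for the next largest, was measured at 869, 822 and 937 at 0 nM and 693, 697 and 611 at 2000 nM, again with no overlap. They fell by 0.35 ± 0.09 (adjusted p = 0.00996) and 0.39 ± 0.10 (adjusted p = 0.00711) on the log2 scale, and both calls were kept under all 20 alternatives. RpI1, for the largest subunit of RNA polymerase I, fell by 0.47 ± 0.09 at the same dose. RpI135, for the next largest of that polymerase, was not called there. The median of the 4 genes for RNA polymerase I and its transcription was -0.03. Bdp1 and Polr3F had log2 fold changes of 0.19 and -0.14 at 2000 nM (adjusted p = 0.0795 and 0.27), and the list median there was -0.05.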

How the data were processed

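The library kit was NEBNext Ultra II Directional with poly(A) capture, per the labels' protocols, although total RNA is the molecule named. Per the submitters' processing notes, the tools were HISAT2 2.1.0, SAMtools 1.13 and Subread 2.0.1, together with DESeq2 1.32.0, with no settings named. The build, annotation and strand setting are not given in the sources used. The deposited signal is the normalised count: per the file headers and the values, the authors scaled each library's reads by its size factor, and undoing that gave whole reads within 0.001. The authors' deposited table also gives a log2 fold change (2000 against 0 nM), a score from a likelihood ratio test over the 4 doses, and its p-value with an adjusted p-value.

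Genes with 10 or more normalised counts in 3 or more of 12 libraries (8455) were transformed as log2(value + 1). limma 3.58.1 (R 4.3.3) was fitted with a trend, 1 mean per dose and 8 residual degrees of freedom. P-values are two-sided and adjusted by Benjamini-Hochberg over all 8455 genes. The fit was tested on simulated data. "Rose" and "fell" are used only past an adjusted p of 0.05. Members and lists were chosen with earlier results of these data known. A member is described per library when it passed in at least 1 of the 6 comparisons, and up to 4 genes per other list by the smallest F-test adjusted p. Exon lengths, overlaps and current symbols came from Ensembl 115 (BDGP6.54), and no coordinates are given. The alternatives were another pseudocount, another filter, TMM scaling of the reads, limma-voom, a replicate block, the 2 groups alone and each library left out.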

Additional observations from a re-analysis of the deposited data

How the results depend on the processing

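No member call reversed. Values that were not called did change sign: the member median from 20 to 200 nM, -0.0087, was 0.00062 without 200 nM replicate 2, and over the alternatives the Myc difference spanned -0.11 to 0.12 from 200 to 2000 nM and -0.19 to 0.0079 from 20 to 2000 nM. Of the 24 member calls over the 6 comparisons, 8 were kept under every alternative. All 24 were kept with a pseudocount of 0.5 or 5, with a filter at 50 and with the replicate block, 23 each without a filter, with TMM scaling and with limma-voom, and 18 with the 2 groups alone, a fit with fewer libraries. Leaving out each library in turn gave 1 to 5 genes higher at 20 nM, 4 to 10 higher and 0 to 1 lower at 200 nM, 3 to 7 higher and 1 to 2 lower at 2000 nM (each against 0 nM), 0 to 1 lower from 20 to 200 nM, 1 to 2 lower from 20 to 2000 nM, and 4 to 9 by the F test. With the 2 groups alone, 0 genes were lower at 200 nM and 1 at 2000 nM, beside 9.71% and 13.1% of all tested genes. Whether equal replicate numbers pair the libraries across doses was not settled. Same-number deviations correlated at -0.37 to 0.40 in 18 pairs, 7 of them over 0.1, and those of 36 other pairs at -0.38 to 0.38. With the replicate block, 13 members (34.2%) passed the F test beside 28.5% of all tested genes, 1 was lower from 20 to 200 nM (RpI1) beside 5.37%, and 5 (13.2%) from 20 to 2000 nM (RpI1, RpI135, Fib, nop5 and eIF6) beside 10.4%. TMM scaling called 1 lower from 20 to 200 nM (RpI1), 2.63% of members beside 4.03% of all tested genes. From 20 to 2000 nM, TMM scaling and a filter at 50 each called 2 lower (RpI1 and nop5), and limma-voom 2 (RpI1 and eIF6). In each of these fits the 2 were 5.26% of members, beside 8.85%, 9.98% and 9.07% of all tested genes. The cause was not tested. The planned edgeR and DESeq2 tests on reads were not run. With 3 libraries per dose and a median SE of 0.109, the member shifts, mostly under 0.4 on the log2 scale, were near what the fit could call. Alternatives for the other lists and for the dose of the highest mean were chosen after seeing the data.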
